A study of Mus musculus with 8 samples.

Results

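The cytosolic ribosomal protein genes were taken as every gene with a probe whose transcript accession maps through RefSeq to a symbol beginning with Rpl or Rps and a digit, or to Rplp0, Rplp1, Rplp2 or Rpsa. Kinase genes beginning with Rps6k and pseudogenes were left out. The rule used no measured value. It found 173 of the 39429 probes on the array, for 86 genes among 32585 genes or unnamed transcripts, and 85 of the 86 could be tested. Of these 85, 46 encode proteins of the large subunit, 30 encode proteins of the small subunit, 7 are paralogs of a subunit gene and 2, Rps19bp1 and Rps23rg1, carry a ribosomal name without encoding a subunit of the ribosome.

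The RNA came from dissociated mouse hippocampal neurons in culture. After 10 days in culture the neurons received a lentivirus carrying Flag-Nr4a1, a tagged form of an activity-induced nuclear receptor, or a lentivirus carrying GFP, and RNA was taken 6 days later. There were 4 arrays labelled Nr4a1 and 4 labelled GFP, joined by the labels in 4 pairs, each pair under 1 replicate number. Each array set the culture's RNA, in the Cy5 channel, against the Universal Mouse Reference, a commercial RNA mixture, in Cy3. Every culture was infected, so the GFP cultures carry a virus too. The promoter driving the transgenes, the animals' age and strain, and whether the pairs are separate dissections are not given in the labels, so p-values measure the spread between these 8 arrays.

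The ribosome is built of ribosomal RNA and a set of proteins present once each or nearly so, the large subunit joining amino acids and the small subunit reading the messenger RNA. Most ribosomal protein messengers start with a C followed by a run of pyrimidines, the terminal oligopyrimidine tract, through which the mTORC1 kinase complex and the protein LARP1 set how much of them is translated. Neurons also carry ribosomes into dendrites, where proteins are made near synapses. Ribosomal protein genes have many processed pseudogenes in the mouse genome, and signal from near-identical copies could not be told apart on these arrays.

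The tract and the NR4A binding element are shown first because they are the sequence features through which this gene family and the delivered receptor are usually discussed. All sequences are from RefSeq, build GRCm38.p6, 5′ to 3′ on the gene's own strand, with 15 bases before the listed transcript start and 15 bases from it on. Capitals mark the longest run of C and T that begins, ends or lies within 3 bases of the start. For a gene with several listed starts, the start with the longest run is shown. Among genes measured here, Rpl27a (chr7:109519180-109519209, plus strand) has a run of 20 pyrimidines whose last base lies past the window. Rpl15 (chr14:18270972-18271001, minus strand) has a run of 17, and Rps6 (chr4:86857353-86857382, minus strand), the phosphorylated target of the S6 kinases, has a run of 10. The next genes are some of those that differed between the groups below. Rpl4 (a run of 1) and Rps19 (a longest run of 4) differed too and are not printed. Rpl22l1 (chr3:28805493-28805522, plus strand) has a run of 10, Rps26 (chr10:128626492-128626521, minus strand) of 9, Rps21 (chr2:180257364-180257393, plus strand) of 7, Rps2 (chr17:24720048-24720077, plus strand) of 4, and Rps13 (chr7:116334176-116334205, minus strand) of 2.
Rpl27a: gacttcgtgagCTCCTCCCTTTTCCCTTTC
Rpl15: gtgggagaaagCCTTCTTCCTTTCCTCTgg
Rps6: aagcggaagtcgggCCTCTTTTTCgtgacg
Rpl22l1: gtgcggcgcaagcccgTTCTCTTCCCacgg
Rps26: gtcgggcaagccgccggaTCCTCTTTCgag
Rps21: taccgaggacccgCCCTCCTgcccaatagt
Rps2: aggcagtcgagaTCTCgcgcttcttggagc
Rps13: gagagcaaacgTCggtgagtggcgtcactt

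Promoter entries, 250 bases before to 50 after a start, were found for 56 of the subunit genes. A pyrimidine run of 8 or more at a start was present in 21 of the 56 (37.5%), against 9.25% of the 27025 genes with an entry. The first transcribed base was a C at a listed start in 35.7%, against 18.9%. Runs were read at listed starts only, so a gene counted without one may still carry the tract. The GGGCGG box bound by Sp1 was present on either strand in 60.7% against 38.2%, CCGGAAGT, bound by GABP, in 19.6% against 4.31%, and AAGATGGC, bound by YY1, in 8.93% against 3.19%. The element AAAGGTCA, to which NR4A receptors bind as monomers, was found in 1 of 56 (1.79%), against 1.70% of all genes. The match is on the opposite strand of Rpl35a (chr16:33056379-33056408), 56, 85 and 117 bases before its 3 listed starts, and is shown in capitals.
Rpl35a: ctctctgtctcTGACCTTTgctttctggcg

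Rpl35a, a large subunit gene, differed by -0.07 (95% interval -0.21 to 0.07) on the log2 scale between Nr4a1- and GFP-labelled arrays. These matches are letters in a window, and binding was not measured.

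The question is how the transcripts of this family compare between cultures given the receptor and cultures given GFP. Levels are log2 ratios of culture RNA over reference RNA, differences are Nr4a1-labelled minus GFP-labelled arrays within pairs with their limma standard errors, and a gene is called at an adjusted p under 0.05 over all 21116 features tested. A feature is a gene, or a transcript without a symbol.

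Few ribosomal protein genes differed between the groups. Of the 85 genes, 6 rose and 3 fell in Nr4a1-labelled arrays, which is 10.6%, against 24.4% of all features (limma). By direction, 7.06% of the genes were higher against 12.8% of all features, and 3.53% were lower against 11.5%. At an unadjusted p under 0.05 there were 16 genes, or 18.8%, against 36.6%. The genes that rose were Rps29, Rpl22l1, Rps21, Rpl4, Rpl3l and Rps19, and those that fell were Rps13, Rps26 and Rps2. None moved by 1.5-fold.

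The differences of the 85 genes ran from -0.45 for Rps13 to 0.35 for Rps29, with a median of -0.0077 and a standard deviation of 0.12. The median over all features was -0.0035, with a standard deviation of 0.25. The typical size of a difference, its median without sign, was 0.07 for the ribosomal protein genes and 0.11 for all features, while the median standard error was 0.063 for the genes and 0.065 for all features. In sign, 38 of the genes were above 0 and 47 below, and 12 were higher and 14 lower in all 4 pairs (30.6%, against 42.4% of all features). Fewer cells of a type and less RNA per cell cannot be told apart in such bulk RNA.

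**Figure D1:**
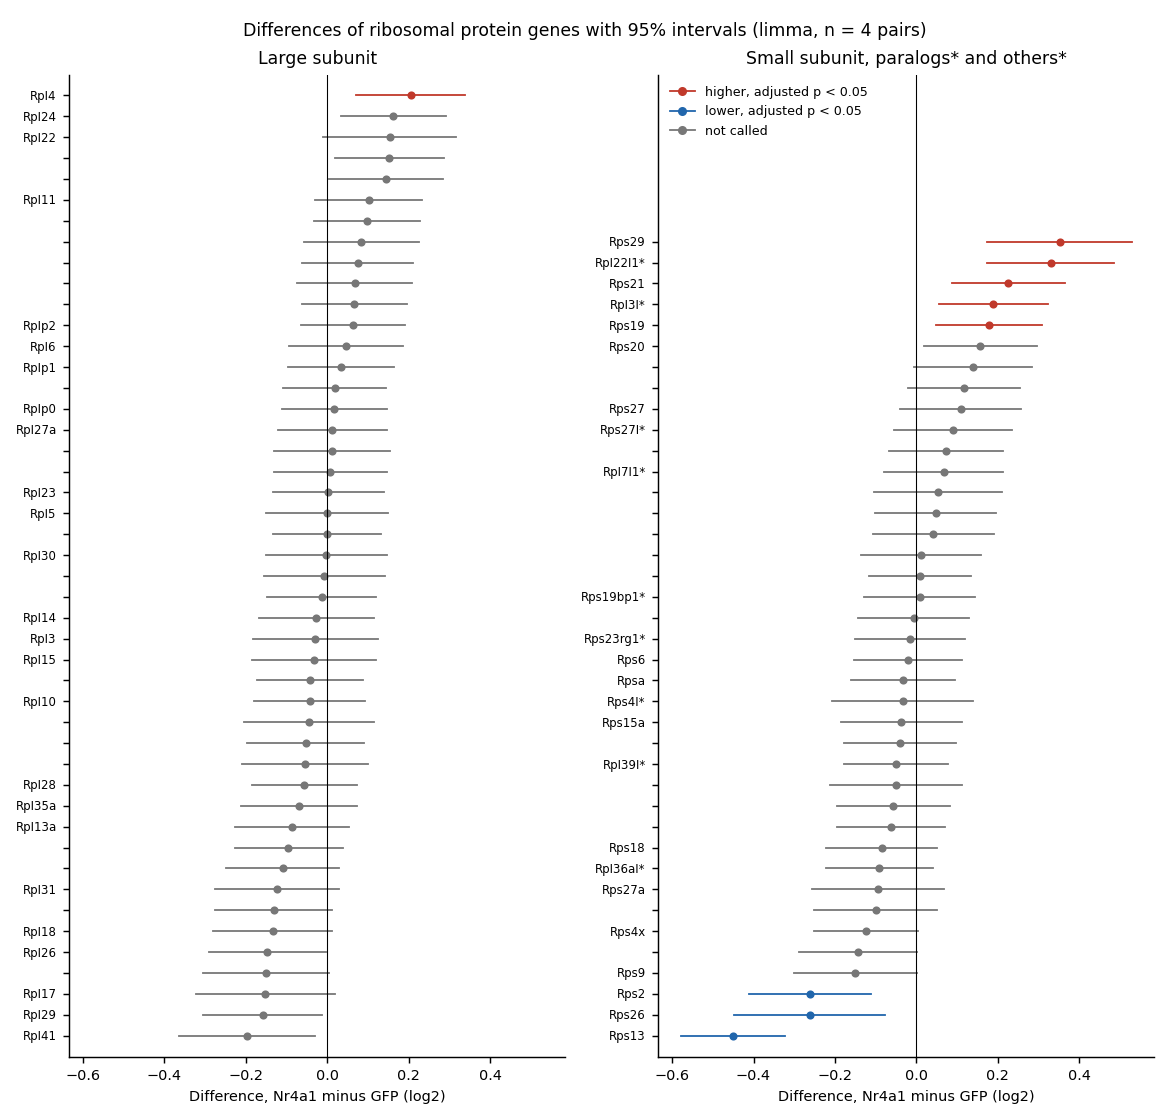
Each point is the difference of 1 ribosomal protein gene, Nr4a1 minus GFP on the log2 scale, with its 95% interval from limma over 4 pairs, large subunit genes on the left and small subunit genes, paralogs and other genes (marked with an asterisk) on the right, with labels for the genes named in the text. The 6 genes that rose are red, the 3 that fell are blue, and the other 76 are grey and centred near 0.

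The intervals hold for the fit by pair and for the probe used for each gene. They take no account of the slide, which could not be separated from the label, or of a gene's other probes. For all 85 genes the 95% interval lay inside a 1.5-fold change either way, for 80 it lay between -0.4 and 0.4 on the log2 scale, and for 36 between -0.2 and 0.2. A p that misses the threshold does not show that a gene is at the same level in both groups.

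In the large subunit, 1 of 46 genes rose and 0 fell (2.17%, against 24.4% of all features, limma), with a median difference of -0.01. Rpl4 encodes a protein that reaches into the tunnel through which the new chain leaves the ribosome. It stood at -0.62, -0.70, -0.63 and -0.72 on Nr4a1-labelled replicates 1 to 4, and at -0.91, -0.88, -0.88 and -0.82 on GFP-labelled replicates 1 to 4. Every Nr4a1-labelled array was above every GFP-labelled array. The difference was 0.20 ± 0.060 (SE, n = 4 pairs; limma adjusted p = 0.0329), a 1.15-fold rise. The call was lost without replicate 1, 2 or 3, with adjusted p of 0.12, 0.0983 and 0.0883 (limma).

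The other large subunit genes ran from -0.20 to 0.16, and none passed the test. At the lower end stood Rpl41, the gene of the smallest ribosomal protein (-0.20 ± 0.075, adjusted p = 0.0842, limma), Rpl29 (-0.16 ± 0.065) and Rpl17 (-0.15 ± 0.077). At the upper end were Rpl24 (0.16 ± 0.058, adjusted p = 0.0678, limma), which forms a bridge between the subunits, and Rpl22 (0.15 ± 0.073). These were named after their values were seen. Rpl41 was at -0.17, -0.19, -0.06 and -0.06 on Nr4a1-labelled replicates 1 to 4, and at -0.05, -0.02, -0.03 and 0.39 on GFP-labelled replicates 1 to 4. The groups did not overlap, and GFP-labelled replicate 4 stood far above the other GFP arrays.

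Of the stalk, Mdm2-binding and tunnel rim genes of the large subunit described next, 0 were called, against 24.4% of all features, and lists of so few genes say little beside that share. The stalk that recruits elongation factors is made of Rplp0, Rplp1 and Rplp2, which differed by 0.02 ± 0.058, 0.03 ± 0.059 and 0.06 ± 0.057. The 4 genes listed for Mdm2 encode proteins among those that inhibit it when ribosome assembly is disturbed and so stabilise p53. Rpl5 differed by -0.0005 ± 0.067, Rpl11 by 0.10 ± 0.059, Rpl23 by 0.0028 ± 0.061 and Rpl26 by -0.15 ± 0.064 (limma adjusted p = 0.127 for Rpl26). Of the 9 genes listed for the rim of the exit tunnel, where chaperones and the signal recognition particle dock, 0 were called, with a median of -0.01.

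In the small subunit 3 of 30 genes rose and 3 fell, or 20%, near the 24.4% of all features (limma), and the shares of the 2 subunits were not tested against each other. The small subunit genes had a median of -0.03 and a wider spread than in the large subunit (standard deviation 0.16 against 0.10, not tested). The largest difference of the family was in Rps13, a protein of the small subunit that sits at the boundary with the large one. Rps13 stood at -0.58, -0.57, -0.60 and -0.55 on the Nr4a1-labelled arrays and at -0.11, -0.18, -0.18 and -0.04 on the GFP-labelled arrays, in order of replicate. The groups lay well apart, with little spread inside either. Rps13 fell by 0.45 ± 0.058 (1.37-fold lower, limma adjusted p = 0.000404).

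That fall belongs to 1 of the 2 Rps13 probes, the brighter one. The dimmer probe read -1.16, -1.19, -1.02 and -1.0 on the Nr4a1-labelled arrays and -1.25, -1.26, -1.20 and -1.10 on the GFP-labelled arrays. On it the Nr4a1-labelled arrays leaned the other way and the groups overlapped. Its difference was 0.11 ± 0.058 (adjusted p = 0.191, limma fit over all probes). The direction for Rps13 is therefore that of a probe, not one shared by the gene's probes.

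Rps2 encodes a protein at the entrance of the messenger channel. It stood at 0.56, 0.74, 0.82 and 0.70 on Nr4a1-labelled replicates 1 to 4, and at 0.98, 1.00, 0.91 and 1.00 on GFP-labelled replicates 1 to 4. The groups did not overlap, and the lowest value was that of Nr4a1-labelled replicate 1. Rps2 fell by 0.26 ± 0.067 (limma adjusted p = 0.019), and its other probe gave -0.24 ± 0.068 (adjusted p = 0.0295, limma fit over all probes). The call was lost without replicate 1, 2 or 4, with adjusted p of 0.0861, 0.0576 and 0.0657 (limma), and with each array centred on its median in place of loess, where the difference was -0.14.

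Rps26, whose protein touches the messenger just upstream of the codon being read, has 1 probe. Its values were -2.07, -1.78, -1.72 and -1.83 on the Nr4a1-labelled arrays and -1.50, -1.50, -1.62 and -1.74 on the GFP-labelled arrays. The groups overlapped, since GFP-labelled replicate 4 lay below Nr4a1-labelled replicate 3. Rps26 fell by 0.26 ± 0.083, lower in 4 of 4 pairs (limma adjusted p = 0.0446). Without replicate 1, whose pair differed most, the difference was -0.16 and the adjusted p 0.175, and without replicate 2 the adjusted p was 0.107 (limma).

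Rps29 had the largest rise. It encodes a small zinc-binding protein of the subunit's head. The values were 0.76, 0.33, 0.49 and 0.76 on the Nr4a1-labelled arrays and 0.13, 0.15, 0.28 and 0.37 on the GFP-labelled arrays. Replicates 1 and 4 of the Nr4a1-labelled arrays were the highest, and replicate 2 lay inside the GFP range. The difference was 0.35 ± 0.080 (1.28-fold, limma adjusted p = 0.0104). Of its other 2 probes, the second brightest gave 0.24 ± 0.070 (adjusted p = 0.0334) and the dimmest 0.03 ± 0.057 (adjusted p = 0.712, limma fit over all probes).

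Rps21, needed in human cells for the maturation of the small subunit's RNA, read -0.71, -0.69, -0.65 and -0.47 on the Nr4a1-labelled arrays and -1.0, -1.0, -0.88 and -0.55 on the GFP-labelled arrays. It was higher in every pair, but the groups overlapped because both arrays of replicate 4 were high. The difference was 0.23 ± 0.063 (limma adjusted p = 0.026), and the call was lost without replicate 1, 2 or 3 (adjusted p = 0.0953, 0.127 and 0.0593).

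Rps19, the gene most often mutated in Diamond-Blackfan anaemia, read -1.87, -1.71, -1.67 and -1.65 on the Nr4a1-labelled arrays and -2.02, -1.88, -1.94 and -1.78 on the GFP-labelled arrays. The groups overlapped in 1 value, that of Nr4a1-labelled replicate 1. The rise of 0.18 ± 0.058 was just past the threshold (limma adjusted p = 0.0487). Rps19 kept its call under 5 of 19 other settings, which count the fit without replicate 4 also as batch 1 alone. The call was lost without any 1 of the 4 replicates (limma adjusted p from 0.0773 to 0.156).

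**Figure D2:**
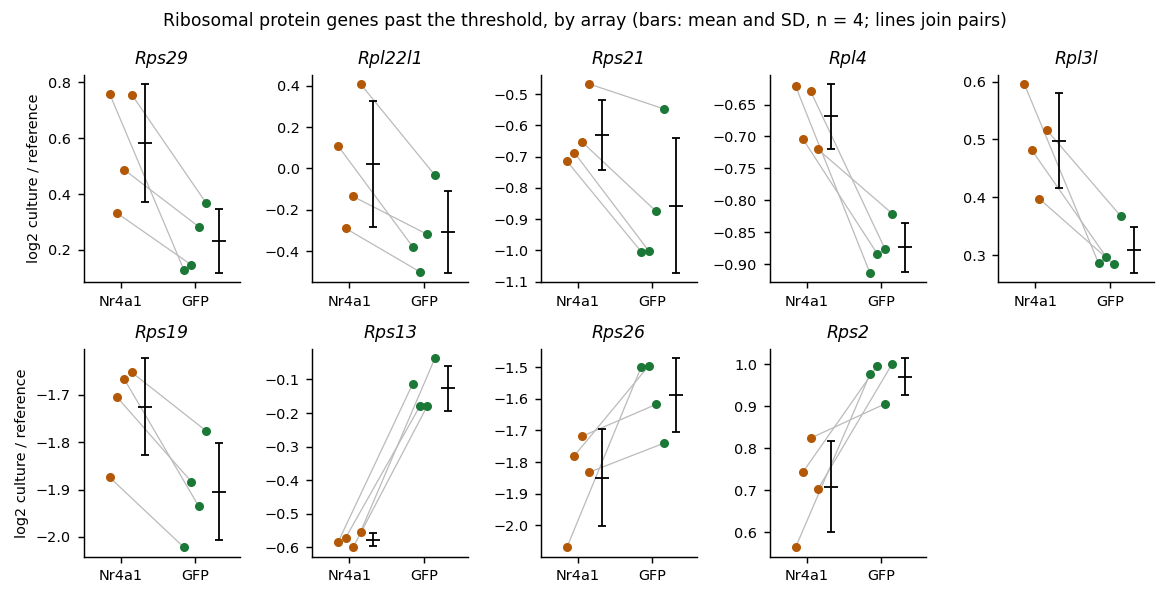
Each panel shows 1 of the 9 ribosomal protein genes past the threshold, with the log2 ratio of culture over reference RNA on the vertical axis (not starting at 0, and on a scale of its own in each panel), Nr4a1-labelled arrays on the left and GFP-labelled arrays on the right. Lines join the arrays of a pair and bars give the mean and SD of 4 arrays; all lines of a gene slope the same way, while the groups stand fully apart for Rpl4, Rpl3l, Rps13 and Rps2.

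Over the 13 genes listed for Diamond-Blackfan anaemia, a failure of red cell production caused by loss of 1 copy of a ribosomal protein gene, 2 rose (Rps19 and Rps29), 1 fell (Rps26) and 10 were not called, with a median of 0.00. That is 23.1%, near the 24.4% of all features.

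Groups that do not overlap give a count that uses no model. Among the 85 genes 11 had all 4 arrays of a group on 1 side of all 4 of the other, or 12.9%, against 24.4% of all features. On the higher side were Rpl4, Rpl3l and Rpl24 (3.53%, against 12.7% of all features). On the lower side were Rps13, Rps2, Rpl28, Rps4x, Rpl18, Rps9, Rpl29 and Rpl41 (9.41%, against 11.7%). The 7 of these that were not called had small differences and were named after their values were seen. Rps4x, the X-linked gene of the S4 protein, stood at -1.64 ± 0.04 on Nr4a1-labelled and -1.52 ± 0.02 on GFP-labelled arrays (SD, n = 4 each), with limma adjusted p = 0.148.

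Of the 7 paralogs tested 2 rose and 0 fell, or 28.6%, near the 24.4% of all features (limma). Rpl22l1, which can replace Rpl22 in the ribosome and also binds RNA outside it, read 0.11, -0.29, -0.14 and 0.41 on the Nr4a1-labelled arrays and -0.38, -0.50, -0.32 and -0.03 on the GFP-labelled arrays. The order of the replicates was nearly the same in both groups, so the groups overlapped while every pair was higher. Rpl22l1 rose by 0.33 ± 0.070 (1.26-fold, limma adjusted p = 0.00753), and without the pair in the fit the adjusted p was 0.116. Its parent Rpl22 differed by 0.15 ± 0.073 (limma adjusted p = 0.159), and the other Rpl22 probe gave -0.15.

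Rpl3l, known from heart and skeletal muscle as the counterpart of Rpl3, was the dimmest member tested. Its Cy3 signal, the reference, cleared the background on 0 of 8 arrays, and its Cy5 signal did so on 3 of 4 Nr4a1-labelled and 4 of 4 GFP-labelled arrays, so its ratio rests on a reference signal near background. It read 0.60, 0.48, 0.40 and 0.52 on the Nr4a1-labelled arrays and 0.29, 0.30, 0.28 and 0.37 on the GFP-labelled arrays. The groups did not overlap, and the rise was 0.19 ± 0.060 (limma adjusted p = 0.0453), lost without any 1 of the 4 replicates (adjusted p from 0.0575 to 0.164). In the Cy5 channel alone the difference was -0.03, without the call. Rpl3 itself differed by -0.03 ± 0.069.

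The other paralogs were not called. Rps27l, a target of p53, differed by 0.09 ± 0.065, Rpl7l1 by 0.07 ± 0.066, Rps4l by -0.03 ± 0.078 and Rpl36al by -0.09 ± 0.059. Rpl39l, a paralog best known from testis, differed by -0.05 ± 0.057. Rps4l was far above the reference RNA, at 4.39 ± 0.13 on Nr4a1-labelled and 4.42 ± 0.15 on GFP-labelled arrays (SD, n = 4 each). Rpl39l was far below it, at -5.93 ± 0.22 and -5.88 ± 0.23 on Nr4a1- and GFP-labelled arrays. It was dim in Cy5, with a mean log2 signal of 7.19 against a median of 15.85 for the members. Under the other settings its difference ran from -0.07 to 0.36, without a call. Rpl10l, a retrocopy of Rpl10 active in the male germ line, has 2 probes, well above background on 0 of 8 arrays in either channel, and was not tested. Rps19bp1, which encodes a regulator of the deacetylase SIRT1, differed by 0.01 ± 0.061 and Rps23rg1, a retroposed gene named for Rps23, by -0.02 ± 0.060.

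The remaining levels were mostly below those of the reference RNA. On Nr4a1-labelled as on GFP-labelled arrays, 72 of the 85 genes had a negative mean ratio, with medians of -0.67 on Nr4a1-labelled and -0.71 on GFP-labelled arrays. The medians of all features were 0.13 in both groups. These ratios set a gene in the cultures against the same gene in the reference mixture and say nothing of one gene against another.

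Array by array, the spread of the family's medians within the GFP group was wider than the gap between the groups. The median ratio of the 85 genes was -0.69, -0.70, -0.65 and -0.65 on Nr4a1-labelled replicates 1 to 4, and -0.74, -0.76, -0.74 and -0.55 on GFP-labelled replicates 1 to 4. GFP-labelled replicate 4 was the highest GFP array for 75 of the 85 genes, and Nr4a1-labelled replicate 4 the highest of its group for 48. Replicate 4 is the whole of batch 2 in the labels.

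**Figure D3:**
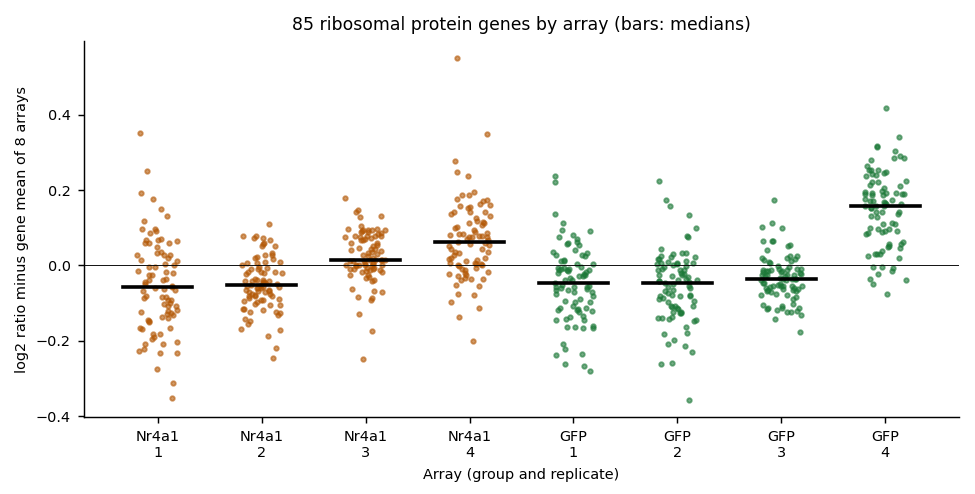
Each dot is 1 of the 85 ribosomal protein genes on 1 array, plotted as its log2 ratio minus that gene's mean over the 8 arrays, with Nr4a1-labelled replicates 1 to 4 on the left, GFP-labelled replicates 1 to 4 on the right, and bars at the medians. GFP-labelled replicate 4 sits above the other arrays and is the highest GFP array for 75 of the 85 genes.

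Within pairs the median difference of the genes was -0.01, 0.02, 0.06 and -0.08 for replicates 1 to 4, with 40, 47, 62 and 18 of the 85 genes above 0. Over all features the median difference of a pair was 0.012, -0.001, -0.023 and 0.013, with between 44.9% and 52.5% above 0. The pairs of replicates 3 and 4 thus leaned opposite ways in this family. In batch 1 alone, the first 3 pairs, 4 genes were higher and 2 lower, all 6 of them among the 9 called with every pair (limma), and Rpl3l, Rps19 and Rps2 were no longer called. That is 7.06% of the genes, against 18.4% of all features in the same 3 pairs. Batch 2 holds 1 pair and gives no test.

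The slide could not be separated from the label, since the GFP-labelled arrays shared slide 1, Nr4a1-labelled replicates 1 to 3 shared slide 2 and Nr4a1-labelled replicate 4 was on slide 3. With slide added to the fit as a random term, 0 of the 85 genes were called (limma), 1 was past an unadjusted p of 0.05, and 0.0568% of all features were called. A background correction that kept the spots of non-uniform background also called 0 of the 85 and 1.07% of all features.

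Several probes for a gene gave a further view. Of the genes 51 had more than 1 tested probe, up to 7 for Rpl17, a gene of the exit tunnel rim. The probes of a gene spanned a median of 0.10 on the log2 scale, and in 19 genes they lay on both sides of 0. With every probe tested as a feature of its own, 6 of 171 probes were higher and 9 lower, or 8.77%, against 23.8% of all 25783 probes (limma). The calls outside the probes used for the genes lay on Rps29 and Rps2, both given above, and among others on Rpl15, Rpl23, Rpl30 and Rpl31.

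Rpl15 is the clearest of these, and like Rpl27a it carries a long pyrimidine run at its start, shown above. Its second probe read -0.32, -0.26, -0.22 and -0.21 on the Nr4a1-labelled arrays and 0.21, 0.10, 0.04 and 0.30 on the GFP-labelled arrays. The groups stood apart by the sign of the ratio. The difference was -0.42 ± 0.066 (adjusted p = 0.00155, limma fit over all probes), while the brightest probe of Rpl15 gave -0.03 ± 0.069. The dimmest probes of Rpl31 (-0.25 ± 0.065), Rpl30 (-0.22 ± 0.069) and Rpl23 (-0.19 ± 0.059) also fell, while the brightest probe of each was not called.

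**Figure D4:**
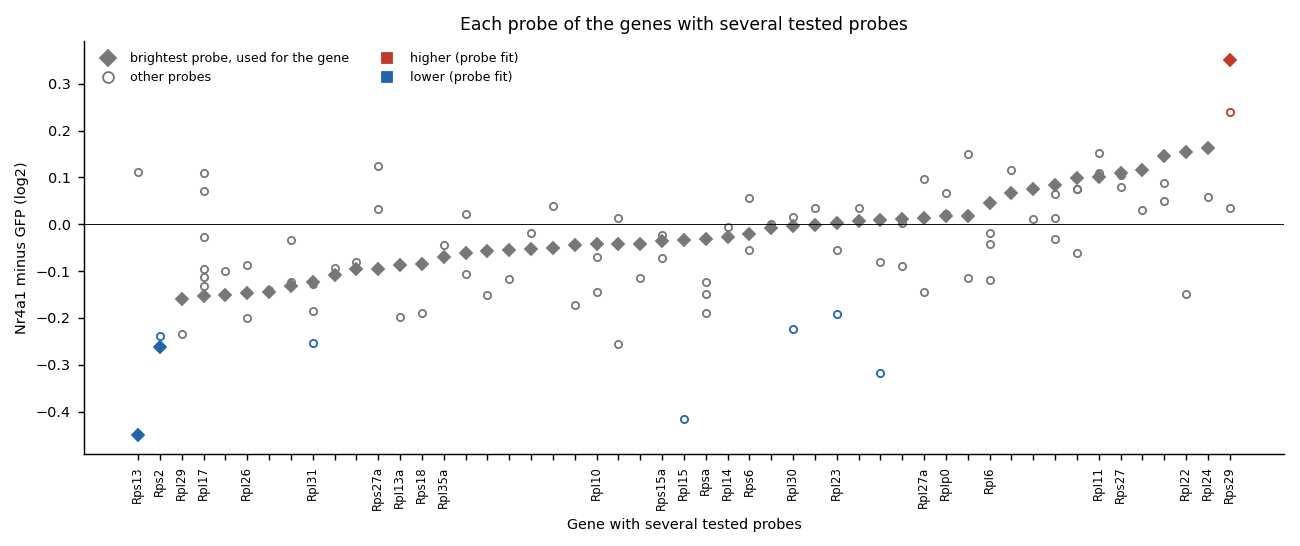
Differences, Nr4a1 minus GFP on the log2 scale, of every tested probe of the 51 genes with several tested probes, ordered by the brightest probe (diamond), with the other probes as open circles, labels for genes named in the text, and calls of the fit over all probes in red (higher) and blue (lower). Most probes of a gene lie within a median range of 0.10, while Rps13, Rpl15 and Rps29 have probes that lie far apart.

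Genes with and without these promoter letters had close medians. The 21 subunit genes with a pyrimidine run of 8 or more at a start had a median difference of -0.03 (range -0.26 to 0.11; 0 rose and 1, Rps26, fell). The 35 without such a run at a listed start also had a median of -0.03 (range -0.45 to 0.23, with 3 higher and 2 lower). Whether these 35 lack the tract depends on the listed starts and was not tested. The 11 with the GABP letters had a median of -0.02 and 0 calls, and the 34 with the Sp1 box a median of -0.03 with 2 genes higher and 2 lower. Beside these counts, 24.4% of all features and 10.6% of the 85 genes were called (limma). No test was made of these splits, and subsets of so few genes say little beside those shares.

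Around the ribosome itself, 2 further genes outside the naming rule were read. Rack1, a scaffold on the small subunit, differed by 0.10 ± 0.060, and Fau, made as a fusion of a small subunit protein with a ubiquitin-like protein, by 0.14 ± 0.061. The ubiquitin fusion Rps27a, which the rule includes, differed by -0.09 ± 0.073, and none of these 3 was called (limma adjusted p from 0.132 to 0.385).

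The messengers that share the oligopyrimidine tract or act in elongation had 1 higher and 2 lower of 16 tested (18.8%, against 24.4% of all features), with a median of -0.05. Pabpc1, the poly(A)-binding protein, rose by 0.27 ± 0.082, while Eef1d, an elongation factor subunit, fell by 0.24 ± 0.076 and the histone chaperone gene Nap1l1 fell by 0.21 ± 0.067. Eef2, which moves the ribosome along the messenger, differed by -0.20 ± 0.075 (limma adjusted p = 0.0819).

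Initiation factors had 3 higher and 2 lower of 27 (18.5%, against 24.4% of all features). Eif1a, which helps find the start codon, fell by 0.38 ± 0.060 and Eif5a by 0.26 ± 0.070. Eif3i, a subunit of the factor that loads messengers, rose by 0.34 ± 0.062 and Eif4g3, a scaffold of cap binding, by 0.34 ± 0.074.

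Ribosome assembly factors had 2 higher and 4 lower of 58 (10.3%, against 24.4% of all features), close to the share of the ribosomal proteins. Sbds, which releases a block from the new large subunit, rose by 0.26 ± 0.062. The nucleolar genes Nop16 (-0.28 ± 0.058), Noc4l (-0.26 ± 0.063) and Gnl3l (-0.23 ± 0.059) fell. RNA polymerases I and III and their factors make the ribosomal RNAs and transfer RNAs. Among their 28 genes 4 rose and 1 fell (17.9%, against 24.4% of all features). Rrn3, which brings polymerase I to ribosomal DNA, rose by 0.42 ± 0.065 (limma adjusted p = 0.00127), Polr1c by 0.30 ± 0.068 and Gtf3c1 by 0.29 ± 0.075, while Polr3k, a polymerase III subunit, fell by 0.44 ± 0.056.

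The growth control genes had the highest share of calls of the lists outside the cell type markers, with 3 higher and 5 lower of 22 (36.4%, against 24.4% of all features), in both directions. The list was chosen with earlier results of these data known, so its share is a description and no test. Ddit4, an inhibitor of mTORC1 signalling, had 0.21 on average on Nr4a1-labelled and 0.99 on GFP-labelled arrays and fell by 0.78 ± 0.109 (limma adjusted p = 0.000711). Mycl, a Myc family gene, fell by 0.43 ± 0.066. Rps6ka3, the kinase RSK2, rose by 0.55 ± 0.061 (limma adjusted p = 0.000171), and Larp4, an RNA-binding protein gene, by 0.47 ± 0.065. Of 12 promoter factors 2 rose and 0 fell (16.7%, against 24.4% of all features), E2f1 by 0.31 ± 0.066 and Sp1 by 0.21 ± 0.059. Zbtb7a (0.18 ± 0.069) and Yy1 (0.16 ± 0.063) were not called.

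Other large protein complexes gave low shares too. Of 77 mitochondrial ribosomal protein genes 6 rose and 1 fell (9.09%, against 24.4% of all features). Mrps31 rose by 0.32 ± 0.058, Mrps28 by 0.27 ± 0.058, Mrps25 by 0.23 ± 0.062 and Mrpl23 by 0.22 ± 0.057. Of 35 genes matched by name to the proteasome 2 were higher and 3 lower (14.3%, against the same 24.4%). Among them were Psmb5 (0.29 ± 0.074), Psmc6 (-0.26 ± 0.060) and Psmd7 (-0.25 ± 0.058). The name match also takes in Psmc3ip, a recombination factor and not a proteasome subunit, which differed by 0.29 ± 0.060. The shares of these lists were not tested against each other or against that of the cytosolic ribosomal proteins.

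**Figure D5:**
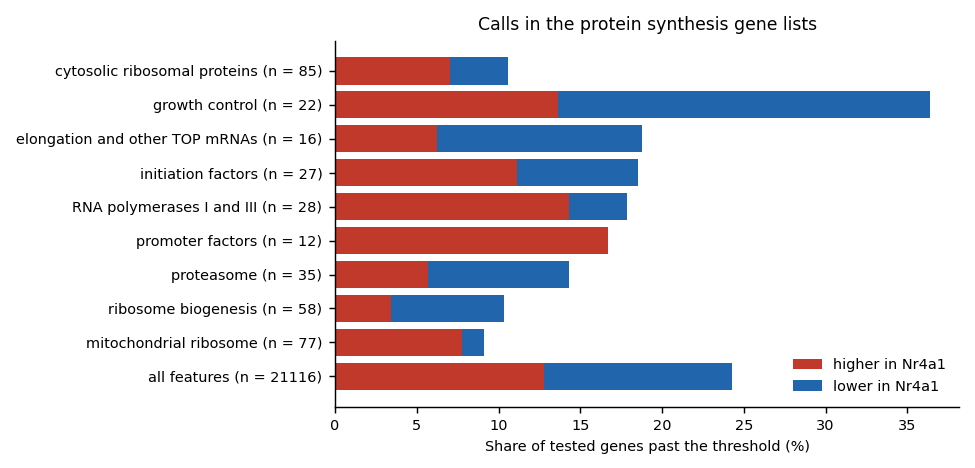
Share of tested genes past the threshold in each protein synthesis, growth control, mitochondrial ribosome and proteasome list, the cell type marker lists left out, split into higher (red) and lower (blue) in Nr4a1-labelled arrays, with the number tested in brackets. The cytosolic ribosomal proteins stand at 10.6%, near the assembly factors (10.3%) and the mitochondrial ribosome (9.09%) and below all features (24.4%), with the growth control genes highest of the lists drawn at 36.4%. The lists were chosen with earlier results of these data known.

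The delivered gene and the cell type markers were read on the same arrays. The Nr4a1 probe stood at -1.32, -2.49, -1.20 and -2.37 on Nr4a1-labelled arrays and at -2.06, -2.12, -1.90 and -2.49 on GFP-labelled arrays, a difference of 0.30 ± 0.154 (limma adjusted p = 0.193), so arrays are named by their labels throughout. Of 10 neuronal markers 1 was higher and 2 were lower, and the sum of their linear ratios to the reference ran from 424 to 486 on Nr4a1-labelled and 456 to 504 on GFP-labelled arrays. Astrocyte markers (2 higher of 8) summed to 219 to 246 on Nr4a1-labelled and 213 to 238 on GFP-labelled arrays. Oligodendrocyte lineage markers (5 higher and 1 lower of 8) summed to 100 to 110.0 on Nr4a1-labelled and 88.9 to 103 on GFP-labelled arrays, and proliferation genes (5 higher of 8) to 0.784 to 0.859 on Nr4a1-labelled and 0.577 to 0.666 on GFP-labelled arrays. Markers of microglia (1 lower of 5) summed to 2.74 to 2.95 on Nr4a1-labelled and 2.90 to 3.17 on GFP-labelled arrays, and those of fibroblasts and endothelium (2 lower of 7) to 2.31 to 2.47 on Nr4a1-labelled and 2.85 to 2.91 on GFP-labelled arrays. The shares called were 30% for neurons, 25% for astrocytes, 75% for the oligodendrocyte lineage and 62.5% for proliferation. They were 20% for microglia and 28.6% for fibroblasts and endothelium, against 24.4% of all features (limma). Cx3cr1, C1qa, P2ry12 and Cdh5 of these lists were too dim to test. As sums, neuronal markers were thus far above the reference RNA, and astrocyte and oligodendrocyte markers were above it too. A few high genes can carry such a sum, so it does not give the level of each marker. The part of these cell types in the ribosomal protein results was not tested.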

How the data were processed

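RNA of 8 cultures was measured on 2-colour arrays. Per the file headers, Agilent Feature Extraction 11.0.1.1 gave a linear intensity per spot and channel, and its log10 ratio, in the files the authors deposited; the deposited value table holds log2 ratios, read as culture over reference because its columns correlated at 0.998 to 1.00 with those computed here. Its centring is not stated (column medians 0.0240 to 0.0312), nor is the choice of its 24275 probes. The submitters' processing notes also name limma.

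Median signals were corrected with normexp (offset 50), leaving out spots of non-uniform background (at most 37 on an array), then normalised by loess with controls at weight 0. Spots of a probe were averaged, and the probe of highest mean Cy5 stood for its gene. Probes entered the test if the Cy5 signal cleared the background on at least 4 of 8 arrays, with no fewer than 3 values in either group. Normexp with this offset shrinks the differences of dim probes. In Cy5, 60.9% to 69.2% of spots cleared the background, none saturated, and precision is limited by the number of arrays.

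Nr4a1 minus GFP was tested two-sided with lmFit and eBayes of limma 3.58.1 (R 4.3.3), keeping the labels' pair as a fixed block, at 0.05 after Benjamini-Hochberg adjustment over 21116 features. Deviations from group means correlated within pairs at -0.10, 0.28, -0.02 and 0.42. The code was tested on simulated data. Symbols came from RefSeq (GRCm38.p6) and matched 26581 probes. The headers name another build for the array, so no coordinates of measured genes are given beyond the RefSeq windows.

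The members and lists were chosen with earlier results of these data known. Named genes were the called members (up to 12 each way), paralogs and members outside the subunits, Rack1 and Fau, the up to 4 genes of smallest p in each outside list, and Nr4a1; others were chosen after their values were seen. Some genes are not reported here. Protein sequences were not used here. Alternatives changed the background correction, normalisation, probe rule, filter, block and arrays used.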

Additional observations from a re-analysis of the deposited data

Results flagged for a closer look

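In each group of 4 arrays, the gap between the highest or lowest array and the next was set against the group's whole range, over the members and other named genes and the members' median (238 groups, 21 past the 95% limit of Dixon's test). Chance marks about 1 group in 20. GFP-labelled replicate 4 stood apart in 17 of these: the median of the 85 ribosomal protein genes was -0.55 there, and -0.76 to -0.74 on the other GFP-labelled arrays.

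Among the members, the GFP-labelled replicate 4 value was 0.37 for Rpl3l, -0.28 for Rps20, -0.52 for Rps27, 0.28 for Rpl14 and -0.47 for Rps15a, each above the other 3 GFP-labelled arrays. It was likewise above them at -1.24 for Rps18, -0.41 for Rpl13a, -0.18 for Rpl36al and 0.39 for Rpl41. Outside the members it was above the others at -0.60 for Fau, -0.72 for Polr1c, 0.22 for Mrpl23, 0.59 for Psmc6 and 2.28 for Psmb5, and below them at 1.1 for Eif4g3 and -0.37 for Noc4l. Replicate 4 is batch 2, and what set this array apart was not tested.

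Nr4a1-labelled replicate 1 stood apart for Rpl6, at -0.58 against -0.68 to -0.67 on the other Nr4a1-labelled arrays, and for Rpl23, at -0.65 against -0.47 to -0.44. GFP-labelled replicate 3 stood apart for Larp4 at -0.91 and for Rrn3 at -0.07.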

How the results depend on the processing

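Under 19 other settings the members higher ran from 0 to 8 and those lower from 0 to 11. Batch 1 alone and leaving out replicate 4 are the same fit, counted under both names. Slide as a random term left 0 higher and 0 lower, with 0.0568% of all features called. So did a background correction that kept all spots, which left 1.07% of all features called and put the members' median to -0.0868. Agilent's own ratio gave 1 higher and 2 lower (3.53%, against 13.5% of all features). Median centring gave 7 higher and 1 lower (9.41%, against 22.4% of all features). It moved the members' median to 0.0778 and that of all features to 0.0593. The Cy5 channel alone gave 4 higher and 8 lower (14.1%, against 28.9% of all features). The authors' values gave 8 higher and 11 lower of 80 (23.8%, against 36.1% of the features there). With no filter on dim probes 3 were higher and 2 lower of 86 (5.81%, against 14.4%). Without the replicate block (pairing) 3 rose and 3 fell (7.06%, against 21.2% of all features), and 6 of the 9 calls were kept. Leaving out 1 replicate gave 2 to 4 higher and 1 to 3 lower, Rps29, Rpl22l1 and Rps13 being called each time. That is 3.53% to 7.06% of the members, against 16.1% to 21.5% of all features. Without replicate 1 and without replicate 2, 3 of the 9 calls were kept, without replicate 3, 5, and without replicate 4, 6. The direction turned in 3 called values: Rpl3l (-0.0251) and Rps19bp1 (-0.1826, adjusted p = 0.0484, limma) in the Cy5 channel alone, and Rps13 (0.1124) with the second-brightest probe, a setting chosen after seeing the data. Loess without the ribosomal protein spots kept 9 of 9. The causes were not tested. Signal near background limits Rpl3l.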

Other observations

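Rps2, which fell, and Rpl3l, which rose, are near neighbours on chromosome 17 in the RefSeq annotation, with Ndufb10 between them.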
